A study of Mus musculus with 8 samples.

Results

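The 115 genes described here had lower mRNA in Mkl1 knockout (KO) than in wild type (WT) macrophages in the first of 2 experiments and higher mRNA in KO than in WT in the second. They were chosen on CPM, a gene's count divided by the total of its library and scaled to a total of 1000000. In experiment 1 the lowest WT value had to be at least 1.6 times the highest KO value, in experiment 2 the lowest KO value at least 1.6 times the highest WT value, and the mean over the 8 libraries at least 5 CPM. Gene symbols starting with Hist were left out. Of 53735 genes listed, 9877 reached the mean and were not Hist genes, and the 115 are 1.16% of these. Because all 8 libraries chose the genes, their values are given as a description and carry no test. The requirement of experiment 1 alone was met by 686 genes (6.95%), and that of experiment 2 alone by 522 (5.29%). The opposite pattern, higher in KO in experiment 1 and lower in experiment 2, was met by 155 genes (1.57%). By the same fold, 77 genes (0.78%) were lower in KO in both experiments and 81 (0.82%) were higher in both.

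RNA-seq was done on bone marrow derived macrophages (BMDMs), which are marrow cells grown into macrophages in culture for 7 days. The marrow came from male C57BL/6J mice of 6 months that had received angiotensin II (Ang II), a peptide that raises blood pressure, from an implanted minipump for 7 days. WT mice were Mkl1+/+, Apoe-/- and KO mice were Mkl1-/-, Apoe-/-, so every group lacked Apoe, and the Mkl1 deletion was global and not limited to macrophages. Each experiment, which the series' design text calls a batch, held 2 WT and 2 KO libraries. WT libraries 1 and 2 and KO libraries 5 and 6 belonged to experiment 1, and WT libraries 3 and 4 and KO libraries 7 and 8 to experiment 2. The labels do not tie a library to an individual mouse, so spread between libraries of a group may be technical in part.

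MKL1, also called MRTF-A, is a coactivator of serum response factor (SRF) and switches on genes of the actin cytoskeleton when monomeric actin becomes scarce. In macrophages, which take up dying cells, lipid and iron, mRNA levels are known to move with the state of differentiation, with activation, and with nutrient supply. One such programme is the integrated stress response, in which a shortage of amino acids or stress in the endoplasmic reticulum raises translation of the transcription factor ATF4. ATF4 and its partners then raise genes of amino acid synthesis and uptake through a composite C/EBP-ATF response element.

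Mkl1 itself read 25.1 and 27.2 CPM in WT and 20.3 and 22 CPM in KO of experiment 1, and 24.9 and 29.3 CPM in WT and 14.5 and 10.6 CPM in KO of experiment 2. KO libraries lay below the WT libraries of their experiment in both, and the transcript was still counted in all 4 KO libraries. Apoe was at 2.79 to 23.5 CPM. Library totals ran from 33977799 to 41584540 counts, at which 3 counts equal 0.0721 to 0.0883 CPM. Summed over the 8 macrophage markers that were not members, the libraries held between 12316 and 26770 CPM. Lyz2 alone, at 7541 to 23413 CPM, made up most of this sum. The sum over 12 fibroblast and stromal genes was 304.5 to 390.2 CPM in KO of experiment 1 and 3.33 to 18.8 CPM in the other 6 libraries. The sum over 12 monocyte genes was 642.2 to 887.3 CPM in WT and 157.6 to 171.9 CPM in KO of experiment 2, and 163.9 to 184.3 CPM in WT and 408.2 to 433.02 CPM in KO of experiment 1. Of these 12 genes, Ccr2, Cx3cr1 and Itga4 were higher in all 4 libraries in which the 115 genes were low than in the other 4, Nr4a1 was lower in all 4, and the other 8 overlapped. Ccr2 was at 139.8 and 111.6 CPM in KO of experiment 1 and 35.3 and 5.84 CPM in WT of experiment 2, against 1.299 to 3.56 CPM. Cx3cr1 was at 17.2 and 21.02 CPM and at 139.4 and 63.7 CPM in these groups, against 4.24 to 9.07 CPM, and Itga4 at 194.3 and 191.2 CPM and at 676.01 and 556.2 CPM, against 127.3 to 140.2 CPM. The defining monocyte genes Ly6c2 and Chil3 were at or below 0.204 CPM in each library. Erythroid and platelet genes summed to 28.2 to 39.6 CPM in KO of experiment 1 and 67.2 to 94.3 CPM in WT of experiment 2, against 10.8 to 24.2 CPM, nearly all of it Pf4, with 6 of the 12 genes at 0 in every library. Mast cell and basophil genes summed to 5.14 to 6.401 CPM and 10.5 to 11.3 CPM, against 1.44 to 3.73 CPM. Different genes raised this sum in the 2 groups. Mcpt8 was counted only in KO of experiment 1, at 1.21 and 1.34 CPM. Hdc was at 7.26 and 2.31 CPM in WT of experiment 2 and 0.0562 and 0.579 CPM in KO of experiment 1. Kit was at 3.51 and 4.37 CPM in KO of experiment 1, which overlapped KO of experiment 2 at 3.58 and 2.26 CPM. Osteoclast and fusion genes that were not members summed to 310.6 to 313.4 CPM in KO of experiment 1. They summed to 198.9 to 269.4 CPM in WT of experiment 2, against 175.2 to 198.2 CPM. Dendritic cell genes summed to 236.8 to 243.3 CPM in KO of experiment 1 and 143.8 to 174.2 CPM in the other 6 libraries. The monocyte, erythroid, mast cell and osteoclast sums were thus higher in both groups in which the 115 genes were low. The fibroblast and dendritic sums were higher in 1 of them. Some of these sums rest on few genes, and the part of such cells in the pattern was not tested. In bulk RNA, fewer cells of a type and less RNA per cell cannot be told apart. Across the 9877 genes, the group means of WT in experiment 1 and KO in experiment 2 lay within 2-fold of each other for 98.9% of genes, against 87.6% to 92.6% for the other 5 pairs of groups.

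The 115 genes summed to 38479 and 39314 CPM in WT of experiment 1 and 31204 and 39915 CPM in KO of experiment 2. They summed to 13269 and 12998 CPM in KO of experiment 1 and 13325 and 15303 CPM in WT of experiment 2. The rule set the order of the groups within each experiment and left the order across experiments free. In 114 of the 115 genes, all 4 libraries of WT in experiment 1 and KO in experiment 2 lay above all 4 libraries of KO in experiment 1 and WT in experiment 2, as did 14.4% of the 9877 genes. The rule itself fixed much of this order in the members, so nothing is read from the difference. The exception was Marco. In 88 genes the 4 high libraries were at least 1.6 times the 4 low ones. The rule set this fold within each experiment and the share over all genes was not computed, so nothing is read from this count. The ratio of mean CPM between the 2 high groups, KO of experiment 2 over WT of experiment 1, had a median of 0.995 over the 115 genes and lay within 2-fold in 111 of them (96.5%, against 98.9% of the 9877 genes). Between the 2 low groups, WT of experiment 2 over KO of experiment 1, the median was 0.906 and 89 genes lay within 2-fold (77.4%, against 87.6%). WT of experiment 2 was the lowest group in 69 genes and KO of experiment 1 in 46, while the highest group was WT of experiment 1 in 58 and KO of experiment 2 in 57. The median fold of WT over KO in experiment 1 was 2.77, and that of KO over WT in experiment 2 was 3.09. The smaller of their 2 rule ratios reached 2 in 50 genes, 3 in 24, 5 in 12 and 10 in 8.

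**Figure D1:**
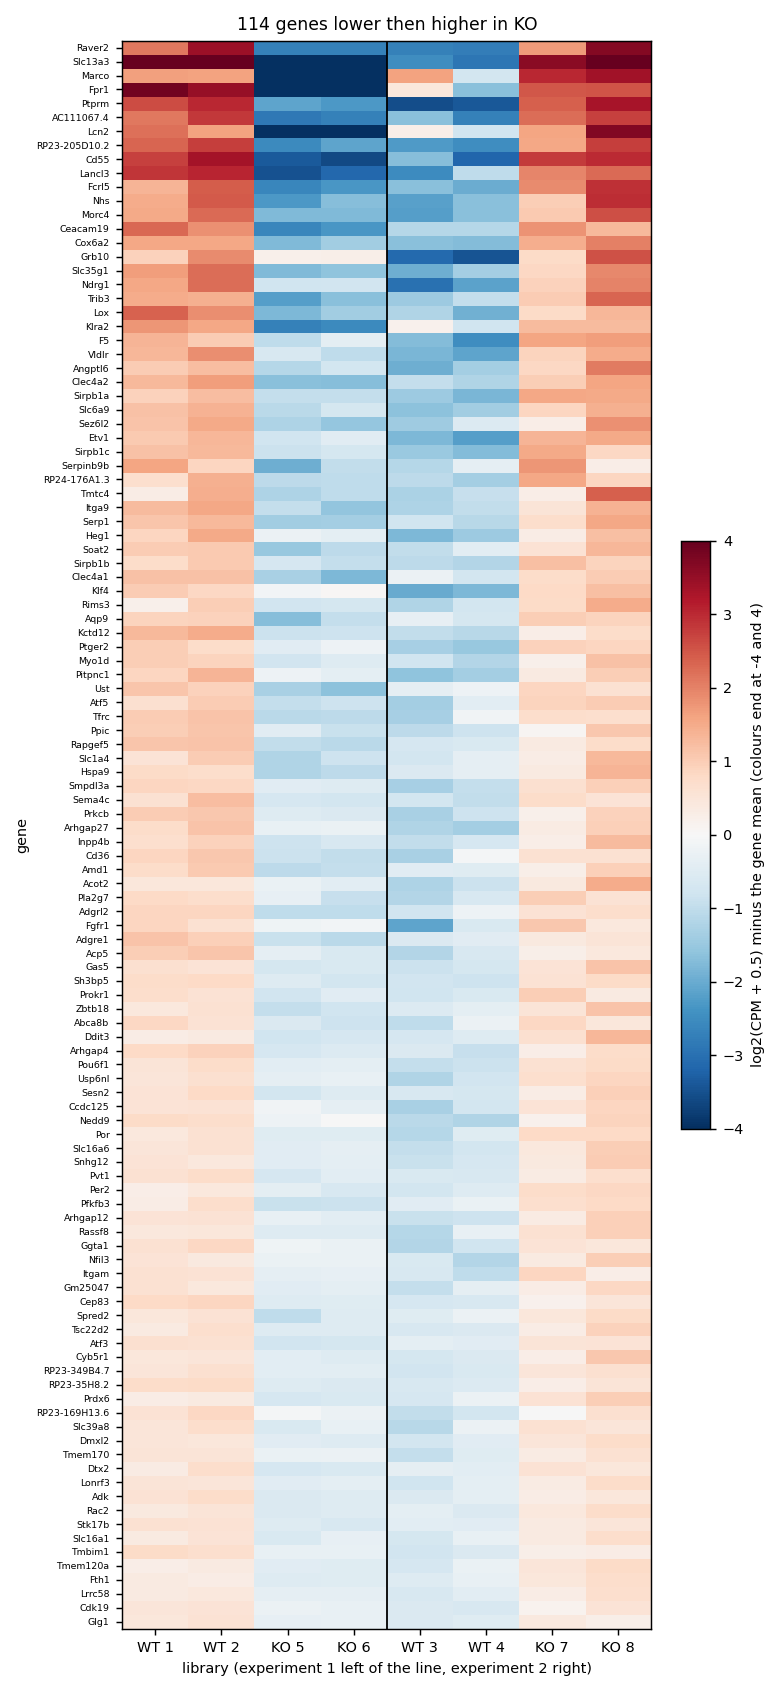
Rows are 114 of the 115 genes, ordered by the product of their 2 folds, and columns the 8 libraries. Colour is log2(CPM + 0.5) minus the mean of the gene, and ends at -4 and 4. WT of experiment 1 and KO of experiment 2 are red, and KO of experiment 1 and WT of experiment 2 are blue, in nearly every row.

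**Figure D2:**
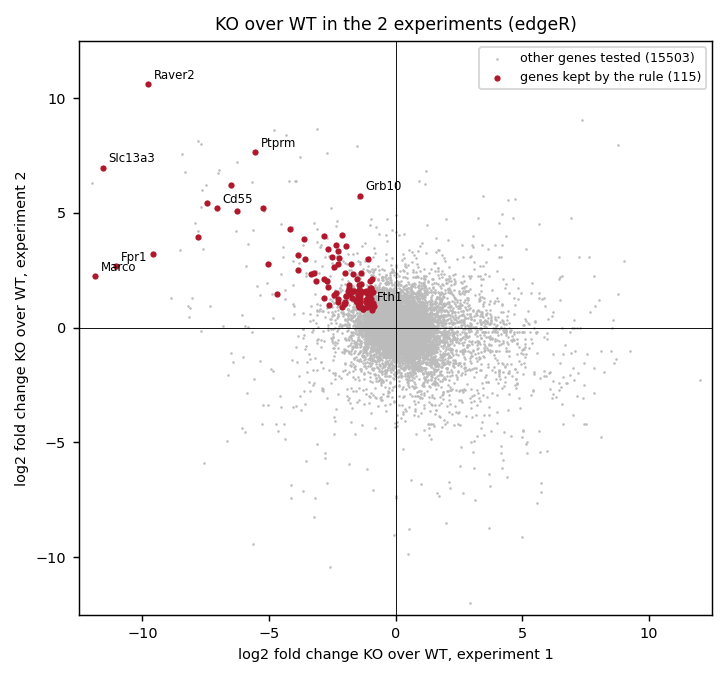
Each point is 1 of 15618 genes fitted with edgeR, at its log2 fold change of KO over WT in experiment 1 (horizontal) and experiment 2 (vertical), both drawn within -12 and 12. The 115 genes all lie in the upper left quadrant because the rule placed them there.

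To place the 115 genes among all others, the difference of the KO effect between experiments was tested in 15618 genes with edgeR's quasi-likelihood test. At a Benjamini-Hochberg adjusted p under 0.05 for this difference, 2579 genes (16.5%) had a fitted fold change below 0 in experiment 1 and above 0 in experiment 2, and 2482 (15.9%) had the reverse signs. These directions, written as lower then higher or the reverse here and for every list, are signs of fitted values and not calls within an experiment. Within experiment 1 alone 4282 genes (27.4%) were lower in KO and 4183 higher, and within experiment 2 alone 1109 (7.1%) were higher and 1249 lower. The count of 1109 rests on every library of experiment 2, since it was 204 without WT 3, 422 without WT 4, 368 without KO 7 and 149 without KO 8. The 115 genes are a small and selected share of these, and calls among them follow from the rule. The median log2 fold change over all genes was 0.0167 in experiment 1 and 0.00477 in experiment 2.

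The 12 genes with the largest smaller ratio were at low levels in both low groups. Raver2, an RNA binding protein gene at chr4:101068983-101152370 that overlaps the coding gene Jak1, was at 14.3 and 35.9 CPM in WT of experiment 1 and 10.7 and 43.7 CPM in KO of experiment 2, against 0.0281 and 0.0263 CPM in KO of experiment 1 and 0.0255 and 0 CPM in WT of experiment 2. Its low groups rest on 1 and 1 counts in KO of experiment 1 and 1 and 0 counts in WT of experiment 2, so no fold is given. Slc13a3 encodes a sodium-coupled carrier of dicarboxylates such as succinate and lies at chr2:165405028-165473230. It stood at 1559 and 2241 CPM in WT and 0.73 and 0.632 CPM in KO of experiment 1, and 13.7 and 10.1 CPM in WT and 959.6 and 2166 CPM in KO of experiment 2. Its 2 low groups did not overlap, and WT of experiment 2 lay 17.5 times above KO of experiment 1. Cd55, the decay-accelerating factor that shields cells from complement, lies at chr1:130439027-130462744 and measured 145 and 221 CPM in WT of experiment 1 and 152 and 172 CPM in KO of experiment 2, against 1.66 and 1.29 CPM in KO of experiment 1 and 6.32 and 1.97 CPM in WT of experiment 2. Ptprm, a receptor tyrosine phosphatase of cell contacts at chr17:66666947-67354457, lay at 54.4 and 73.3 CPM in WT and 1.6 and 1.34 CPM in KO of experiment 1, and 0.28 and 0.371 CPM in WT and 47.3 and 88.5 CPM in KO of experiment 2. In Ptprm the WT libraries of experiment 2 were lower than both KO libraries of experiment 1, whereas in Cd55 they were higher.

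Lancl3, at chrX:9199902-9268085, was at 56 and 62.8 CPM in WT of experiment 1 and 29.4 and 37 CPM in KO of experiment 2, against 0.197 and 0.369 CPM in KO of experiment 1 and 0.866 and 3.36 CPM in WT of experiment 2. Ceacam19 belongs to the carcinoembryonic antigen adhesion family, lies at chr7:19875742-19887965 and stood at 57.4 and 41.4 CPM in WT and 1.4 and 1.82 CPM in KO of experiment 1, and 4.84 and 4.79 CPM in WT and 40.7 and 28.2 CPM in KO of experiment 2. Both of these had a larger ratio in experiment 1 than in experiment 2. Fcrl5, an Fc receptor-like gene at chr3:87435773-87500678, measured 9.5 and 20.1 CPM in WT of experiment 1 and 13.8 and 28.7 CPM in KO of experiment 2, against 0.14 and 0.263 CPM in KO of experiment 1 and 0.713 and 0.485 CPM in WT of experiment 2. Nhs, a regulator of actin remodelling at chrX:161833296-162159730, lay at 8.97 and 18.3 CPM in WT and 0.197 and 0.553 CPM in KO of experiment 1, and 0.255 and 0.57 CPM in WT and 6.22 and 25.8 CPM in KO of experiment 2. Within both high groups, libraries 2 and 8 were over 2 times libraries 1 and 7 for Fcrl5 and Nhs. Cox6a2, the muscle form of a cytochrome c oxidase subunit at chr7:128205435-128206387 that overlaps the coding gene Itgad, was at 15.3 and 15.2 CPM in WT of experiment 1 and 14.2 and 21.2 CPM in KO of experiment 2, against 1.1 and 1.55 CPM in KO of experiment 1 and 1.17 and 1.11 CPM in WT of experiment 2. Morc4, a zinc finger ATPase gene at chrX:139821632-139871677, stood at 19.6 and 33 CPM in WT and 1.54 and 1.55 CPM in KO of experiment 1, and 0.993 and 1.68 CPM in WT and 13.8 and 40.8 CPM in KO of experiment 2. The KO libraries of experiment 1 and the WT libraries of experiment 2 overlapped in Cox6a2 and Morc4. RP23-205D10.2 and AC111067.4, which carry clone names and were not placed on the genome here, complete the 12. The first measured 18.3 and 25.3 CPM in WT of experiment 1 and 10.5 and 25.2 CPM in KO of experiment 2, against 0.14 and 0.369 CPM in KO of experiment 1 and 0.28 and 0.171 CPM in WT of experiment 2. The second lay at 18.6 and 30.8 CPM in WT and 0.112 and 0.184 CPM in KO of experiment 1, and 0.892 and 0.171 CPM in WT and 20.4 and 28.8 CPM in KO of experiment 2.

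**Figure D3:**
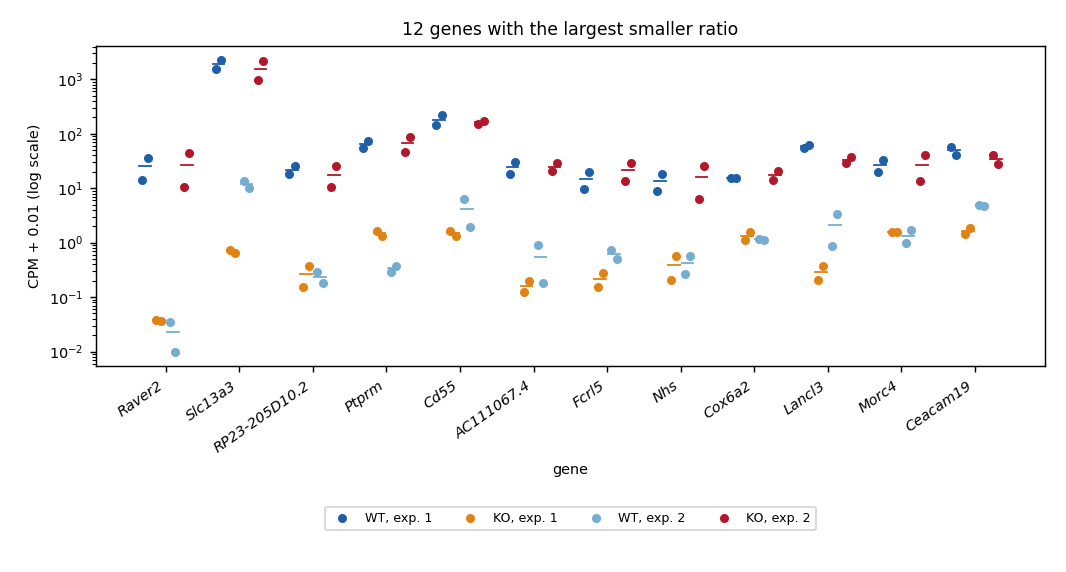
CPM + 0.01 on a log axis for the 12 genes with the largest smaller ratio. Points are single libraries and lines the mean of the 2 libraries of a group. The 2 low groups lie more than 5-fold below the 2 high groups for each gene, and Slc13a3 alone passes 1000 CPM.

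The 8 members with the highest mean CPM carried most of the summed level. Fth1, the heavy chain of the iron store ferritin, was at 9532 and 9033 CPM in WT of experiment 1 and 10016 and 12063 CPM in KO of experiment 2, against 5221 and 5231 CPM in KO of experiment 1 and 5180.3 and 6023 CPM in WT of experiment 2. Adgre1, which encodes the macrophage marker F4/80, stood at 8145 and 7125 CPM in WT and 2003 and 1759 CPM in KO of experiment 1, and 2489 and 2697 CPM in WT and 4834 and 5336 CPM in KO of experiment 2. Cd36, a scavenger receptor for oxidised lipid and fatty acids, measured 2336 and 2719 CPM in WT of experiment 1 and 1954 and 1965 CPM in KO of experiment 2, against 709.6 and 648 CPM in KO of experiment 1 and 517 and 1217 CPM in WT of experiment 2. For Cd36 the low groups were uneven, since WT library 4 was over 2 times the level of WT library 3. Serp1, a protein of the endoplasmic reticulum translocon induced by stress, lay at 1971 and 2246 CPM in WT and 347 and 353 CPM in KO of experiment 1, and 529.8 and 428 CPM in WT and 1493 and 2663 CPM in KO of experiment 2. Hspa9, the mitochondrial Hsp70, was at 892 and 869.8 CPM in WT of experiment 1 and 682 and 1369 CPM in KO of experiment 2, against 229 and 255 CPM in KO of experiment 1 and 355 and 408 CPM in WT of experiment 2. KO library 8 was well above KO library 7 in Serp1 and Hspa9. Kctd12, an auxiliary subunit of GABA-B receptors, stood at 1278 and 1439.6 CPM in WT and 286 and 289.9 CPM in KO of experiment 1, and 262 and 240.5 CPM in WT and 622 and 859 CPM in KO of experiment 2. Rac2, the small GTPase of blood cells that serves the phagocyte oxidase, measured 688 and 749 CPM in WT of experiment 1 and 701 and 887 CPM in KO of experiment 2, against 354 and 369 CPM in KO of experiment 1 and 407 and 356 CPM in WT of experiment 2. Slc13a3, described above, completes the 8 with a mean of 869 CPM. Fold changes were modest in Fth1, at 1.78 in experiment 1 and 1.97 in experiment 2, and in Rac2, at 1.99 and 2.08.

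**Figure D4:**
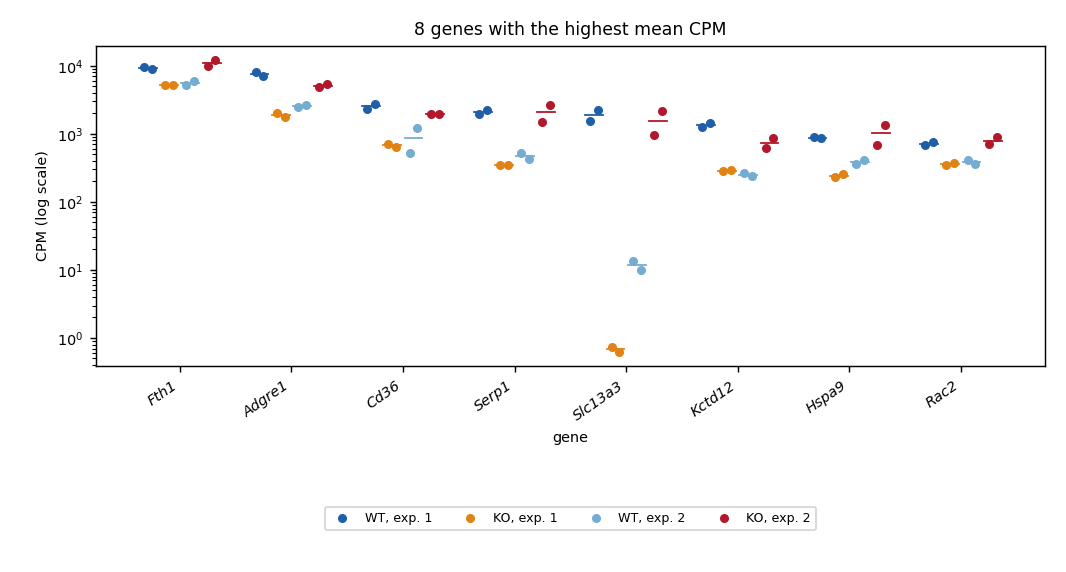
CPM on a log axis for the 8 members with the highest mean. Points are libraries and lines group means. Fth1 stays between 5180.3 and 12063 CPM in all libraries, while Slc13a3 spans from under 1 CPM to 2241 CPM.

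Among these 115 genes, 7 (6.09%) were solute carriers by symbol, against 166 (1.68%) of the 9877 genes. Beside Slc13a3 they include carriers of amino acids, monocarboxylates and metals. Slc6a9, a glycine carrier, lay at 9.79 and 11.6 CPM in WT and 1.66 and 2.34 CPM in KO of experiment 1, and 0.968 and 1.25 CPM in WT and 7.86 and 11.8 CPM in KO of experiment 2. Slc1a4, a carrier of alanine, serine and cysteine, was at 21.3 and 29.9 CPM in WT of experiment 1 and 17.8 and 36.1 CPM in KO of experiment 2, against 5.95 and 7.98 CPM in KO of experiment 1 and 8.48 and 11.1 CPM in WT of experiment 2. Slc35g1, of the nucleotide sugar carrier superfamily, stood at 68.9 and 102 CPM in WT and 5.93 and 6.74 CPM in KO of experiment 1, and 5.17 and 8.01 CPM in WT and 38.6 and 82.7 CPM in KO of experiment 2. In Slc1a4 and Slc35g1, KO library 8 was over 2 times KO library 7. The monocarboxylate carriers Slc16a1 and Slc16a6 had mean levels of 21.5 and 28.6 CPM, with folds of 1.9 and 1.94 in experiment 1 and 2.08 and 3.06 in experiment 2. Slc39a8, a zinc and manganese importer, measured 72.6 and 84.6 CPM in WT of experiment 1 and 78.8 and 72.1 CPM in KO of experiment 2, against 34 and 42.3 CPM in KO of experiment 1 and 23.7 and 43.6 CPM in WT of experiment 2. Its WT library 4 exceeded both KO libraries of experiment 1, so the low groups overlapped. Aqp9, a channel for water and glycerol, and Abca8b, an ABC transporter, had means of 11.5 and 13 CPM and were named after their values were seen. From a list of 18 solute carriers of metabolites, 13 tested genes were not members. Of these, 3 were lower then higher in KO past the interaction test (edgeR, adjusted p under 0.05) and 2 were the reverse, with median log2 fold changes of -0.30 and 0.03. The 3 with the smallest p were Slc43a2, a neutral amino acid carrier, at 0.89 and -0.36 (edgeR interaction, adjusted p = 0.000728), Slc43a3, a purine base carrier, at -1.69 and 0.27 (edgeR interaction, adjusted p = 0.000885), and Slc38a1, a glutamine carrier, at -0.55 and 0.48 (edgeR interaction, adjusted p = 0.00238). Slc43a2 thus ran opposite to the members.

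Of the members, 5 belong to the amino acid response. Trib3, a pseudokinase induced by ATF4, lay at 67.9 and 65.3 CPM in WT and 4.77 and 7.22 CPM in KO of experiment 1, and 8.48 and 12.2 CPM in WT and 49.4 and 123 CPM in KO of experiment 2. Ddit3, which encodes the stress transcription factor CHOP, was at 72.1 and 75.3 CPM in WT of experiment 1 and 91.9 and 147 CPM in KO of experiment 2, against 33.3 and 36.2 CPM in KO of experiment 1 and 36.5 and 40.4 CPM in WT of experiment 2. Atf5, a relative of ATF4, stood at 80 and 104 CPM in WT and 26.2 and 28.9 CPM in KO of experiment 1, and 19.7 and 38.5 CPM in WT and 96.2 and 105 CPM in KO of experiment 2. In Ddit3 and Trib3 the highest library of all was KO library 8. Sesn2, which senses leucine and restrains mTORC1, measured 61 and 72.4 CPM in WT of experiment 1 and 51.8 and 81.9 CPM in KO of experiment 2, against 25 and 28.8 CPM in KO of experiment 1 and 26.7 and 25.8 CPM in WT of experiment 2. Vldlr, the receptor for very low density lipoprotein, lay at 20.4 and 30.1 CPM in WT and 4.94 and 3.66 CPM in KO of experiment 1, and 1.89 and 1.45 CPM in WT and 15 and 23.2 CPM in KO of experiment 2. WT of experiment 2 was the lowest group for Vldlr and KO of experiment 1 for Trib3. The list from which these 5 members come has 17 genes. Of its 12 other genes, 10 were lower then higher in KO past the interaction test (edgeR, adjusted p under 0.05) and 0 were the reverse, which was also 0 at an unadjusted p under 0.05 and with DESeq2 and limma-voom. Over these 12 the median was -2.34 (experiment 1) and 0.57 (experiment 2) on the log2 scale. The experiments were unequal in calls, since 11 of the 12 were lower in KO within experiment 1, and 1 was higher within experiment 2. Asns, asparagine synthetase, stood at 312 and 301 CPM in WT and 34.1 and 43.7 CPM in KO of experiment 1, and 108 and 150.01 CPM in WT and 196 and 349 CPM in KO of experiment 2 and had log2 fold changes of -3.09 and 1.02 (edgeR interaction, adjusted p = 0.000335). Psat1, of serine synthesis, stood at 142 and 158 CPM in WT and 29.5 and 37.4 CPM in KO of experiment 1, and 64.5 and 77.1 CPM in WT and 90.4 and 133 CPM in KO of experiment 2, with -2.27 and 0.60 (edgeR interaction, adjusted p = 0.000329). Cebpb, a partner of ATF4, had log2 fold changes of -1.58 and -0.04 (edgeR interaction, adjusted p = 0.000222), and was not counted among the 10 because both signs were negative. Ddit4, the 1 gene of the list with values above 0 in both experiments, had log2 fold changes of 0.64 and 0.87 and did not pass the interaction test (edgeR, adjusted p = 0.573).

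**Figure D5:**
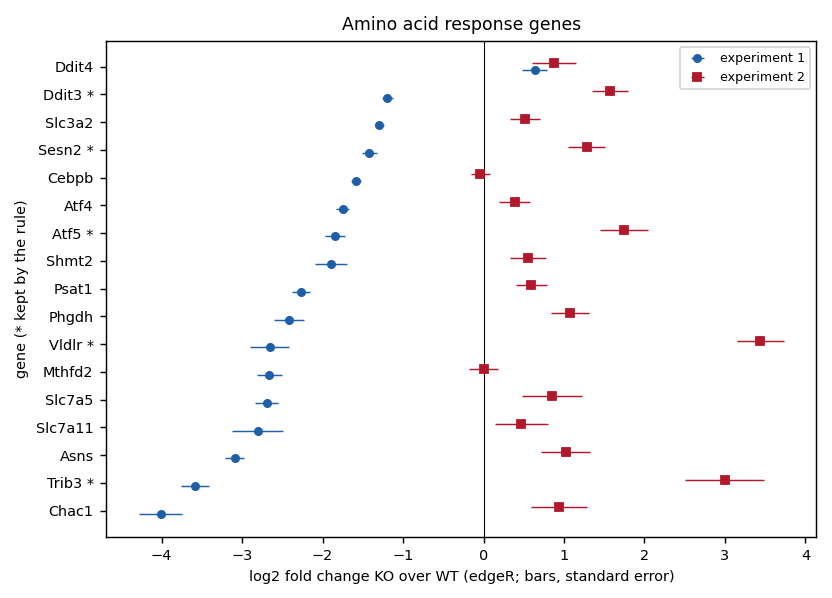
Log2 fold change of KO over WT with its standard error from edgeR (n = 2 libraries a group) for the 17 amino acid response genes, in experiment 1 (circles) and experiment 2 (squares). A star marks the 5 members, which the rule selected. All genes but Ddit4 lie left of 0 in experiment 1, and all but Cebpb lie at or right of 0 in experiment 2.

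Among the members, 7 hold the letters TGATGNAA, or their reverse complement, within 250 bases before to 50 bases after a start site in RefSeq (GRCm38.p6). These letters cover the core of the C/EBP-ATF response element and were added to the search after the members were known. They stood in 8.05% of the 87 members with a promoter in the table, and in 2.78% of 7519 genes with a mean of at least 5 CPM. Of 16 amino acid response genes with a promoter, 5 held them. The sequences are shown because ATF4 and its partners are known to bind such letters in amino acid response genes. Capitals mark 8 matching bases in each line, a second match in the Slc7a11 line is left in lower case, and each line runs 5′ to 3′ on the strand of the gene.
Trib3, chr2:152344028-152344057, minus strand: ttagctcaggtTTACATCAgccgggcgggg
Vldlr, chr19:27216794-27216853, plus strand: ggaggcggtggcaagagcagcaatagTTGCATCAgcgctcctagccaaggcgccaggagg
Atf3, chr1:191183410-191183469, minus strand: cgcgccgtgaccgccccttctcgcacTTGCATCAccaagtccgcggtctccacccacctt
Slc1a4, chr11:20332699-20332728, minus strand: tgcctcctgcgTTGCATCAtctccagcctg
Aqp9, chr9:71162664-71162723, minus strand: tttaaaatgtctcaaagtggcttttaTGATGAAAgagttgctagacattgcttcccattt
Usp6nl, chr2:6352721-6352750, plus strand: taagctcctgaTGATGAAAcctgttgcatc
Tmtc4, chr14:122983347-122983406, minus strand: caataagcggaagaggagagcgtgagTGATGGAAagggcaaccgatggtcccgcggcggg
Asns, chr6:7693210-7693258, minus strand: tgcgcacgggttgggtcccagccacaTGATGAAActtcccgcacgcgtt
Chac1, chr2:119351023-119351082, plus strand: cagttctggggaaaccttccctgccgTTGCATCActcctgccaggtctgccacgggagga
Slc7a11, chr3:50443646-50443705, minus strand: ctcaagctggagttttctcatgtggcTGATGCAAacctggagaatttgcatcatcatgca
Asns, Chac1, a glutathione cleaving enzyme, and Slc7a11, the cystine carrier, are list genes and not members, and Chac1 and Slc7a11 were named after their values were seen. Chac1 had log2 fold changes of -4.01 and 0.94 (edgeR interaction, adjusted p = 0.000612), and Slc7a11 of -2.81 and 0.47 (edgeR interaction, adjusted p = 0.00198). Members that share TTGCATCA are Vldlr, Atf3 and Slc1a4, and the list genes Chac1 and Slc7a11 (in its second match) have the same 8 letters. In Trib3 the letters begin after the start site and in the others before it. A match is a description of letters and does not show binding.

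Receptors and surface proteins made up a role group of 23 members with median folds of 4.45 in experiment 1 and 5.08 in experiment 2. Marco, a scavenger receptor for bacteria and particles, was at 59.2 and 58.3 CPM in WT of experiment 1 and 155 and 199 CPM in KO of experiment 2, against 0 and 0.0263 CPM in KO of experiment 1 and 58.6 and 11.1 CPM in WT of experiment 2. KO of experiment 1 rests on 0 and 1 counts, and WT library 3 lay between the 2 WT libraries of experiment 1. Fpr1, the receptor for formylated bacterial peptides, stood at 486 and 378 CPM in WT and 0.225 and 0.211 CPM in KO of experiment 1, and 45.4 and 10.2 CPM in WT and 189 and 192 CPM in KO of experiment 2. Its KO libraries of experiment 1 held 8 and 8 counts. Itgam, the CD11b chain of complement receptor 3, measured 349.8 and 344 CPM in WT of experiment 1 and 414 and 272 CPM in KO of experiment 2, against 178 and 183 CPM in KO of experiment 1 and 146 and 113 CPM in WT of experiment 2. Itga9, an integrin chain that binds tenascin and osteopontin, lay at 59.6 and 72.4 CPM in WT and 12.3 and 7.74 CPM in KO of experiment 1, and 10.1 and 12.1 CPM in WT and 34.9 and 65 CPM in KO of experiment 2. In Itgam KO library 7 was above KO library 8, and in Itga9 the order was the reverse. Clec4a1 and Clec4a2, C-type lectin genes on chromosome 6, were picked out after their values were seen. Clec4a1 was at 354 and 348 CPM in WT of experiment 1 and 260.4 and 312 CPM in KO of experiment 2, against 63 and 44.1 CPM in KO of experiment 1 and 131 and 93.5 CPM in WT of experiment 2. Clec4a2 stood at 169 and 215 CPM in WT and 20.8 and 20.3 CPM in KO of experiment 1, and 34.6 and 29.4 CPM in WT and 135 and 203 CPM in KO of experiment 2.

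Among the members are 3 Sirpb1 genes of the signal regulatory protein family. Sirpb1a measured 17 and 21.3 CPM in WT of experiment 1 and 26.6 and 26.2 CPM in KO of experiment 2, against 4.24 and 4.24 CPM in KO of experiment 1 and 2.85 and 2.08 CPM in WT of experiment 2. Sirpb1b and Sirpb1c had means of 6.32 and 9.95 CPM and folds of 3.7 and 4.39 in experiment 1 and 5.42 and 8.61 in experiment 2. They lie on the minus strand at chr3:15371653-15426520, chr3:15495751-15575065 and chr3:15795145-15848528. As near copies they can share reads, so their separate levels are uncertain.

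Among the other macrophage markers, Csf1r and Cd68 went the opposite way. Of the 8 tested markers that were not members, 0 were lower then higher and 2 were higher then lower in KO past the interaction test (edgeR, adjusted p under 0.05), and 1 was lower then higher at an unadjusted p under 0.05. Over all 10 markers, the 2 selected by the rule included, 2 were lower then higher with edgeR and 3 with DESeq2. Csf1r, the receptor for the growth factor of macrophages, had log2 fold changes of 0.80 and -1.28 (edgeR interaction, adjusted p = 0.00167). Cd68, a lysosomal glycoprotein of macrophages, had 0.72 and -0.50 (edgeR interaction, adjusted p = 0.00612). Cd14, the co-receptor for lipopolysaccharide, had -0.18 and -1.48 (edgeR interaction, adjusted p = 0.025), and its adjusted p (edgeR) was 0.0608 to 0.0894 without any 1 of 5 libraries, WT 2, WT 3, KO 5, KO 6 or KO 8. Adgre1, selected by the rule, and Csf1r both define macrophages and had opposite signs in each experiment. Of 22 other scavenger and phagocytic receptors, 2 were lower then higher and 6 the reverse (3 without KO library 5), with median log2 fold changes of 0.57 and -0.16. Cd5l, a soluble scavenger protein of macrophages, stood at 916 and 1217 CPM in WT and 1009 and 1067 CPM in KO of experiment 1, and 153 and 249.9 CPM in WT and 1161 and 1307 CPM in KO of experiment 2 and had log2 fold changes of -0.15 and 2.56 (edgeR interaction, adjusted p = 0.000643). Fcgr2b, the inhibitory Fc receptor, had 1.63 and -1.86 (edgeR interaction, adjusted p = 0.000688), and Axl, a receptor for apoptotic cells, had 2.99 and -2.69 (edgeR interaction, adjusted p = 0.000772).

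Iron handling is the role of 3 members. Tfrc, the transferrin receptor, lay at 421 and 462 CPM in WT and 97.7 and 101 CPM in KO of experiment 1, and 83 and 189 CPM in WT and 338 and 333 CPM in KO of experiment 2. Fth1 is given above. Lcn2, which encodes a siderophore binding protein of granulocytes and activated macrophages, was at 48.9 and 31.8 CPM in WT of experiment 1 and 31.1 and 139.7 CPM in KO of experiment 2, against 0.0281 and 0.079 CPM in KO of experiment 1 and 11.9 and 5.64 CPM in WT of experiment 2. It rests on 1 and 3 counts in KO of experiment 1, and KO library 8 was far above KO library 7. The sum over the 13 other neutrophil and granule genes was 64.6 to 76.6 CPM in KO of experiment 2, 67.8 to 78.9 CPM in WT of experiment 1, 53.4 to 70.7 CPM in WT of experiment 2 and 41.8 to 45.02 CPM in KO of experiment 1. Csf3r, a receptor gene, made up 40.6 to 77.02 CPM of it, while S100a8 was at 0.102 to 1.299 CPM and S100a9, Ly6g, Mpo, Elane and Ltf at or below 0.0843 CPM in each library. Of 11 other iron and heme genes, 4 were lower then higher in KO and 1 was the reverse past the interaction test (edgeR, adjusted p under 0.05), with median log2 fold changes of -0.44 and 0.20. Slc11a2 and Slc11a1, iron carriers of endosome and phagosome, had log2 fold changes of -2.19 and 0.14 (edgeR interaction, adjusted p = 5.94e-05) and of -1.53 and 0.15 (edgeR interaction, adjusted p = 0.00129). Slc40a1, the iron exporter ferroportin, stood at 8.25 and 8.18 CPM in WT and 69.4 and 66.2 CPM in KO of experiment 1, and 20.9 and 49.1 CPM in WT and 18.9 and 9.48 CPM in KO of experiment 2 and had 2.93 and -1.34 (edgeR interaction, adjusted p = 0.00134).

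Lipid and phosphoinositide genes made up 7 members with median folds of 2.54 in experiment 1 and 3.53 in experiment 2. Pla2g7, a phospholipase that clears platelet-activating factor, stood at 217 and 201 CPM in WT and 99.2 and 65.7 CPM in KO of experiment 1, and 54.5 and 80.2 CPM in WT and 245 and 188 CPM in KO of experiment 2. Soat2, which esterifies cholesterol, measured 11 and 11.2 CPM in WT of experiment 1 and 8.08 and 13.9 CPM in KO of experiment 2, against 1.52 and 2.27 CPM in KO of experiment 1 and 2.42 and 3.79 CPM in WT of experiment 2. Por, the electron donor of cytochrome P450 enzymes, lay at 359 and 406 CPM in WT and 193 and 192 CPM in KO of experiment 1, and 121 and 191 CPM in WT and 467 and 466 CPM in KO of experiment 2. Soat2 and Por were named after their values were seen. The glycolysis regulator Pfkfb3 was at 58.9 and 78.2 CPM in WT of experiment 1 and 76.7 and 85 CPM in KO of experiment 2, against 26 and 26.4 CPM in KO of experiment 1 and 35.5 and 40 CPM in WT of experiment 2. Acp5, tartrate-resistant acid phosphatase of osteoclasts and macrophages, stood at 14.7 and 16.1 CPM in WT and 5.42 and 4.56 CPM in KO of experiment 1, and 2.88 and 4.39 CPM in WT and 8.56 and 9.7 CPM in KO of experiment 2.

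Small GTPase and kinase signalling genes numbered 15, with median folds of 2.24 and 2.76. The 3 Arhgap genes among them encode proteins that switch off small GTPases, and 25 Arhgap genes were among the 9877. Arhgap4 measured 291 and 318 CPM in WT of experiment 1 and 200.4 and 277 CPM in KO of experiment 2, against 105 and 114 CPM in KO of experiment 1 and 113 and 89.2 CPM in WT of experiment 2. Arhgap12 lay at 239 and 243 CPM in WT and 131 and 122 CPM in KO of experiment 1, and 87.9 and 91.8 CPM in WT and 205 and 317 CPM in KO of experiment 2. Arhgap27 was at 50.4 and 66.8 CPM in WT of experiment 1 and 37.6 and 58.7 CPM in KO of experiment 2, against 24.2 and 24.9 CPM in KO of experiment 1 and 12.9 and 11.4 CPM in WT of experiment 2. In all 3 the KO libraries of experiment 2 were unequal, with library 8 the higher. Grb10, an adaptor of insulin receptor signalling chosen here after its values were seen, stood at 24.4 and 48.9 CPM in WT and 14.8 and 15 CPM in KO of experiment 1, and 1.02 and 0.713 CPM in WT and 21.9 and 76.8 CPM in KO of experiment 2. It had the lowest ratio between the low groups, with WT of experiment 2 at 0.0581 of the level of KO of experiment 1.

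Transcription factors made up 9 members, with median folds of 2.12 in experiment 1 and 3.11 in experiment 2. Atf3, a stress-induced factor of the ATF family, measured 543 and 529 CPM in WT of experiment 1 and 496 and 509.8 CPM in KO of experiment 2, against 205 and 214 CPM in KO of experiment 1 and 265 and 255 CPM in WT of experiment 2. Klf4, a factor of monocyte differentiation and macrophage polarisation, lay at 32.8 and 28.8 CPM in WT and 14.6 and 16.6 CPM in KO of experiment 1, and 3.54 and 4.25 CPM in WT and 28 and 37.2 CPM in KO of experiment 2. In Klf4 WT of experiment 2 was the lowest group, and in Atf3 it was KO of experiment 1. Per2, a component of the circadian clock, was at 5.55 and 6.36 CPM in WT of experiment 1 and 7.94 and 8.49 CPM in KO of experiment 2, against 3.37 and 2.74 CPM in KO of experiment 1 and 2.57 and 3.08 CPM in WT of experiment 2. Of 21 other immediate early genes, 6 were lower then higher and 1 the reverse past the interaction test (edgeR, adjusted p under 0.05), with median log2 fold changes of -0.70 and -0.06. Fosl2, an AP-1 subunit, had log2 fold changes of -0.49 and 1.37 (edgeR interaction, adjusted p = 0.000318). Jund, another AP-1 subunit, had -0.70 and 0.60 (edgeR interaction, adjusted p = 0.000805), and Myc, a growth regulator, had -1.92 and -0.13 (edgeR interaction, adjusted p = 0.000647).

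Among the secreted proteins, Lox, which crosslinks collagen, stood at 614 and 431 CPM in WT and 33.5 and 44.7 CPM in KO of experiment 1, and 50.8 and 30.8 CPM in WT and 201 and 295 CPM in KO of experiment 2. F5, coagulation factor V, measured 19 and 15 CPM in WT of experiment 1 and 22.1 and 23.9 CPM in KO of experiment 2, against 3.29 and 5.29 CPM in KO of experiment 1 and 1.81 and 0.855 CPM in WT of experiment 2. Lox and F5 were picked out after their values were seen.

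Noncoding transcripts included Gas5 and Snhg12, which host small nucleolar RNAs in their introns. Gas5 lay at 196 and 182 CPM in WT and 76.4 and 82.1 CPM in KO of experiment 1, and 68 and 77.2 CPM in WT and 183 and 274 CPM in KO of experiment 2. Snhg12 was at 18.5 and 17 CPM in WT of experiment 1 and 16.6 and 25.7 CPM in KO of experiment 2, against 8.9 and 9.51 CPM in KO of experiment 1 and 6.57 and 7.67 CPM in WT of experiment 2. KO library 8 was the highest for both. Pvt1, a noncoding gene beside Myc, had a mean of 6.88 CPM. Of 13 other genes in this list, 5 were lower then higher in KO and 1 was the reverse past the interaction test (edgeR, adjusted p under 0.05), with median log2 fold changes of 0.05 and 0.37. Snhg6 and Snhg8, also host genes, had log2 fold changes of -1.32 and 0.71 (edgeR interaction, adjusted p = 0.00026) and of -0.79 and 1.33 (edgeR interaction, adjusted p = 0.000326). H19, an imprinted noncoding RNA, was at 0 CPM in KO of experiment 2 and at 1.66 and 1.69 CPM in KO of experiment 1, where the fibroblast genes were also raised.

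Of the lists without a member, 3 bear on the same programmes. Ribosome biogenesis genes had 11 of 20 lower then higher in KO and 0 the reverse past the interaction test (edgeR, adjusted p under 0.05), and these counts were the same at an unadjusted p under 0.05 and with DESeq2. The 11 became 7 without WT library 3 and 3 without KO library 8, and 12 with limma-voom, while the reverse stayed at 0 in these 3 fits. Their medians were -1.11 in experiment 1 and 0.04 in experiment 2, with 20 of 20 lower in KO in experiment 1 and 0 higher in experiment 2 by the tests within experiments. Gnl3, Nolc1 and Polr1a, all of nucleolar ribosome production, had log2 fold changes of -1.69 and 0.70 (edgeR interaction, adjusted p = 0.000761), of -1.10 and 0.04 (edgeR interaction, adjusted p = 0.0012) and of -1.12 and 0.16 (edgeR interaction, adjusted p = 0.00161). Endoplasmic reticulum chaperone genes had 2 of 17 lower then higher and 4 the reverse, with medians of 0.07 and -0.19. The 4 became 1 at an adjusted p under 0.01 and 1 or 2 without WT library 1, WT library 2 or KO library 6, and the 2 became 4 without KO library 7 and 1 without KO library 8. Dnajb9 and Herpud1, both of protein quality control there, had -0.42 and 0.87 (edgeR interaction, adjusted p = 0.00129) and -1.83 and 0.13 (edgeR interaction, adjusted p = 0.0068), and Calr, calreticulin, had 0.42 and -0.73 (edgeR interaction, adjusted p = 0.00276). MRTF and SRF targets, the genes MKL1 is known for, had 0 of 25 lower then higher and 10 the reverse, also at an unadjusted p under 0.05 and with DESeq2 and limma-voom, with medians of -0.12 and -1.12. The 10 became 3 with at least 10 counts in every library, and the 0 became 1 with upper-quartile scaling and 2 without WT library 4 or without KO library 7. Acta2, smooth muscle actin, stood at 2.62 and 3.12 CPM in WT and 11.3 and 15.4 CPM in KO of experiment 1, and 5.02 and 6.58 CPM in WT and 1.96 and 2.09 CPM in KO of experiment 2 and had 2.11 and -1.57 (edgeR interaction, adjusted p = 0.000212). Tpm2 and Myl9, a tropomyosin and a myosin light chain of smooth muscle, were at 3.2 and 3.87 and at 3.29 and 6.16 CPM in KO of experiment 1 and at lower levels in each of the other 6 libraries. These 3 genes were highest in the 2 libraries with raised fibroblast genes, and the part of those in their levels was not tested. Over the 35 lists with no member, the share of genes lower then higher ran from 0% to 55%.

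By symbol, 108 of the 115 genes were placed in GENCODE M21 (GRCm38), and 104 of them are protein coding. They lie on 20 chromosomes, with 12 on chromosome 1 (11.1%, against 5.89% of the 9305 genes placed). Median exonic length was 4744 bases in members and 4711 in all, and median gene span was 37660 bases against 24928. Of pairs of members, 8 lie within 200000 bases of each other. Closest are Por and Tmem120a, 159 bases apart on chromosome 5, and Lonrf3 and the small RNA gene Gm25047, 1558 bases apart on chromosome X. Tsc22d2 and Serp1 are 53034 bases apart on chromosome 3, and Itgam and Cox6a2 86944 bases apart on chromosome 7. Another gene overlaps 63 of the 108, and another coding gene overlaps 14. Overlaps and near pairs were not counted for all placed genes, so nothing is read from these counts. The library kit marked strand, but the strand setting of the counting is not given in the sources used here, so reads of overlapping genes such as Raver2 and Jak1 may not be separated.

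Promoter letters were searched on both strands, and a promoter may hold several motifs. TATAAA stood in 16.1% of members' promoters and 8.19% of all, in 14 members that include Fth1, Trib3, Fpr1 and Etv1. CCAAT stood in 37.9% against 43.1%, TTTGAA in 13.8% against 14.2%, and the E2F letters TTTCGCGC, TTTGGCGC or TTTCCCGC in 3.45% against 4.39%. CACGTG was found in 12.6% against 12.5%, TGANTCA of AP-1 in 8.05% against 6.01%, and TGACGTCA of CREB in 1.15% against 3.98%. The NF-kB motif stood in 65.5% against 72.5%, and GAGGAAGT of PU.1 in 4.6% against 3.99%. The CArG box bound by SRF stood in 1.15% against 1.56%, TGACNNNGC of NRF2 in 13.8% against 17.5%, and GGGCGG in 65.5% against 71.2%. The letters of GGGCGG and of the NF-kB motif can overlap.

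The remaining members were grouped by role after their values were seen and are given briefly. Ndrg1, a stress-induced gene, stood at 628 and 1019 CPM in WT and 124 and 128 CPM in KO of experiment 1, and 27 and 48.5 CPM in WT and 409 and 852 CPM in KO of experiment 2. WT of experiment 2 was its lowest group, well below KO of experiment 1. Prdx6, an antioxidant enzyme, measured 98.1 and 104 CPM in WT of experiment 1 and 121 and 159.7 CPM in KO of experiment 2, against 50 and 52.6 CPM in KO of experiment 1 and 50 and 68.3 CPM in WT of experiment 2. Klra2, of the killer lectin-like receptor family, lay at 59.2 and 50.6 CPM in WT and 2.19 and 2.45 CPM in KO of experiment 1, and 19.1 and 9.52 CPM in WT and 41.7 and 41.7 CPM in KO of experiment 2. For Klra2 the WT libraries of experiment 2 lay between KO of experiment 1 and the high groups. Further receptors and surface proteins were Adgrl2, Ptger2, Prokr1, Fgfr1, Sema4c and Heg1. Further lipid genes were Smpdl3a, Acot2, Pitpnc1 and Inpp4b, of which Smpdl3a was at 777 and 755 CPM in WT of experiment 1 and 667 and 818 CPM in KO of experiment 2, against 308 and 295 CPM in KO of experiment 1 and 168 and 221 CPM in WT of experiment 2. Further signalling genes included Rapgef5, Nedd9, Sh3bp5, Spred2, Rassf8, Prkcb, Stk17b and Cdk19. Prkcb, a protein kinase C isoform of blood cells, stood at 493 and 513 CPM in WT and 169.7 and 161 CPM in KO of experiment 1, and 98 and 136 CPM in WT and 277 and 461 CPM in KO of experiment 2. Its KO library 8 was above KO library 7, and WT of experiment 2 was the lowest group. The transcription factors Zbtb18 and Pou6f1 had means of 80 and 20.5 CPM. The secreted group held 4 genes, Lox, F5, Lcn2 and Angptl6, with median folds of 9.08 and 11.2. A last set of 37 members without a shared role had mean levels from 5.10 to 659.7 CPM and median folds of 2.61 in experiment 1 and 2.51 in experiment 2. Of these, Myo1d, Rims3, Ppic, Dmxl2, Sez6l2, Cyb5r1, Tmem170, Cep83, Dtx2, Ust and Tmbim1 are named here for completeness. The same holds for Ggta1, Glg1, Ccdc125, Lrrc58, Adk, Serpinb9b and Amd1, and for the clone-named RP24-176A1.3, RP23-349B4.7, RP23-35H8.2 and RP23-169H13.6. Serpinb9b, a serine protease inhibitor gene, measured 14.1 and 8.27 CPM in WT of experiment 1 and 16.1 and 5.32 CPM in KO of experiment 2, against 0.758 and 1.95 CPM in KO of experiment 1 and 1.71 and 3.31 CPM in WT of experiment 2. Adk, adenosine kinase, lay at 97.9 and 109 CPM in WT and 44.2 and 46 CPM in KO of experiment 1, and 43.9 and 49.5 CPM in WT and 81.4 and 89.2 CPM in KO of experiment 2. Serpinb9b was uneven within each group, whereas replicates of Adk lay close together.

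Replicate libraries of the members differed in each group. KO library 8 was over 1.5 times KO library 7 in 41 of the 115 genes (35.7%), against 2.1% of the 9877 genes, and WT library 2 was over 1.5 times WT library 1 in 13 (11.3%, against 1.08%). In the low groups, WT library 4 was over 1.5 times WT library 3 in 22 (19.1%, against 3.99%). It was under 0.5 times WT library 3 in 8 of the 115 genes, against 111 of the 9877 genes. KO library 6 was over 1.5 times KO library 5 in 10 (8.77% of the 114 with a count in library 5, against 0.901%). Genes with the widest gap between libraries 7 and 8 included Lcn2 (4.49 times), Tmtc4 (4.36 times), Nhs (4.15 times) and Raver2 (4.08 times). Just inside the threshold, the smaller ratio was 1.6035 in Slc16a1, 1.6016 in Slc1a4 and 1.6016 in Nfil3, a basic leucine zipper factor. Just outside it, the smaller ratio was 1.5968 in Samd8, 1.5962 in Pck2 and 1.5960 in Pstpip1.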

How the data were processed

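RNA-seq libraries were made with the TruSeq Stranded mRNA kit. Per the submitters' processing notes, reads were handled with STAR 2.7.0f, Subread 1.6.4 with featureCounts, and DESeq2 1.22.1 on GRCm38. The gene annotation is not given in the sources used here. The authors deposited raw read counts per gene and normalized counts, a signal that was checked to equal the counts divided by a size factor per library (0.891 to 1.09), set within each experiment. Members were found from the counts as CPM. The members and the gene lists were chosen with earlier results of these data known.

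Genes were fitted with edgeR 4.0.16 (R 4.3.3) and its quasi-likelihood tests. The difference of the KO effect between experiments was tested in 1 model of the 4 groups. KO against WT was fitted and scaled separately in the 4 libraries of each experiment. The log2 fold changes and signs given for each experiment come from these separate fits. All p-values were adjusted by Benjamini-Hochberg across the whole table. As tested on simulated data for the difference between experiments, 191 of 200 changed genes were recovered among 15618, with 14 false calls. This recovery holds for the changes as simulated and is no measure of recovery for smaller differences. DESeq2 1.42.0, limma-voom (limma 3.58.1), other scaling, filters and thresholds, and leaving out each library were the alternatives. Replicates of a group differed beyond sampling noise (chi-square per gene 11.0 to 73.1). The p-values measure only the spread between these libraries, which may be technical.

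Named are the 12 members with the largest smaller ratio, the 8 with the highest mean CPM, members in a list, families with 3 or more members, genes at the threshold, and up to 3 list genes with the smallest interaction p. Other names were chosen after their values were seen. The values of 1 member are not reported here.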

Additional observations from a re-analysis of the deposited data

Results flagged for a closer look

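The effect of the Mkl1 knockout differed between the 2 experiments by the interaction test (edgeR, adjusted p under 0.05) in 2579 genes with a fitted fold change below 0 in experiment 1 and above 0 in experiment 2, and in 2482 genes with the reverse signs. These signs are not calls within an experiment, where 1109 genes were higher in KO in experiment 2. Experiment and batch are the same factor in this design, so a difference between experiments and a difference between batches cannot be told apart.

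These are 16.5% and 15.9% of the 15618 genes tested, against which the list counts below are to be read. Past this test with opposed directions were 15 of 17 amino acid response genes, all 15 lower then higher, and 11 of 20 ribosome biogenesis genes, all 11 lower then higher. MRTF and SRF targets had 10 of 25, all 10 higher then lower. Of 17 solute carriers 9 were past it (7 lower then higher, 2 the reverse), of 23 immediate early genes 9 (8 and 1), of 15 snoRNA host and noncoding genes 8 (7 and 1) and of 13 iron and heme genes 7 (6 and 1). Of 25 scavenger and phagocytic receptors there were 11 (5 and 6), of 17 endoplasmic reticulum chaperone genes 6 (2 and 4) and of 10 macrophage markers 4 (2 and 2). Without members the scavenger list had 2 and 6, and the chaperone list has no member, so these lists held both directions. The macrophage markers without members had 0 and 2, so their lower then higher genes were members only. The 4 endoplasmic reticulum chaperone genes became 1 at an adjusted p under 0.01. Where a list holds members of the 115, these are in its count because the rule selected them.

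The values that follow are the log2 fold change of KO over WT in experiment 2 minus that in experiment 1, from the model of all 8 libraries. The fold changes given above for each experiment come from separately scaled fits, so their differences can depart slightly from these values. Amino acid response and carrier genes with higher values in experiment 2 were Asns (4.1), Chac1 (4.94), Slc7a11 (3.27), Psat1 (2.85), Slc43a3 (1.95) and Slc38a1 (1.02). Iron carriers were Slc11a2 (2.31) and Slc11a1 (1.66), with the exporter Slc40a1 opposite at -4.29. Immediate early, noncoding host and nucleolar genes were Fosl2 (1.85), Jund (1.29), Snhg6 (2.02), Snhg8 (2.11), Gnl3 (2.38), Nolc1 (1.12) and Polr1a (1.27). Protein quality control genes were Dnajb9 (1.28), Herpud1 (1.94) and Calr (-1.17), and the soluble scavenger Cd5l was at 2.7. Lower values in experiment 2 were found for the receptors Fcgr2b (-3.5), Axl (-5.69) and Csf1r (-2.09), for Cd68 (-1.24) and Slc43a2 (-1.26), and for Acta2 (-3.7), Tpm2 (-4.92), Myl9 (-11.35) and H19 (-10.65). Myl9 and H19 rest on 0 to 1 counts in KO of experiment 2, so their fitted values depend on the prior count and are no measure of size.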

How the results depend on the processing

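The 115 members became 291 with a fold of at least 1.3, 50 with 2, 74 with a mean of at least 20 CPM and 229 with group means in place of single libraries. They numbered 114 to 192 when 1 library was left out, with 192 without KO library 7. By the authors' normalized counts there were 131, of which 111 were shared, and with TMM scaling 124, of which 108 were shared.

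At an adjusted p under 0.01, 1598 genes were lower then higher in KO, by sign, and 1388 the reverse, and 126 were higher in KO within experiment 2. The last count, 1109 with all libraries, was 149 to 422 when 1 library of experiment 2 was left out: 204 without WT 3, 422 without WT 4, 368 without KO 7 and 149 without KO 8. Leaving out 1 library gave 1854 to 2856 genes lower then higher, 1725 to 2726 the reverse, and 3558 to 3986 lower in experiment 1. With upper-quartile scaling, 3301 genes were lower and 5179 higher in KO in experiment 1 (38.9% lower), against 4282 and 4183 (50.6% lower), and the median log2 fold change moved by 0.113.

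Ribosome biogenesis genes lower then higher numbered 7 without WT 3 and 3 without KO 8, against 11, and MRTF and SRF targets higher then lower numbered 3 with at least 10 counts in every library, against 10. Of 445 values of named genes under alternatives, 439 kept their direction and side of the threshold, 6 of Cd14 did not pass it, and 0 reversed. The cause of these shifts was not tested. No paired analysis was possible because WT and KO libraries share no replicate number.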
